A study of Mus musculus with 4 samples.

Results

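Endothelial cells of the heart meet circulating leukocytes, and 9 genes of that contact surface were followed here through heart development in mice. They are Icam1, Icam2 and Vcam1 of the immunoglobulin family, the selectins Sele and Selp, the chemokine Ccl2, and Ly6a, Ly6c1 and Ly6e, which encode small surface proteins held in the membrane by a lipid anchor. The 9 genes were chosen by name from the 27998 genes of the files, and all 9 were found there. Their levels were read in 4 groups of cells, each drawn by summed counts of other genes. Endocardial cells had more Npr3 and Tmem108 than Fabp4, Cldn5 and Aplnr, and coronary cells had at least 2 of the latter and more of them than of the former. Artery cells had at least 3 of Cxcl12, Glul, Alpl and Nebl, and large artery cells at least 2 of Fbln5, Eln, Gkn3 and Clu.

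Cells with the surface marker CD31 and without the leukocyte marker CD45 (CD31+/CD45-) were sorted from hearts of strain C57Bl6J. Each stage gave 1 single-cell library from pooled animals, 37 at embryonic day 12 (E12), 48 at E15, 21 at postnatal day 2 (P2) and 6 adults of 8 weeks. Digestion was longer at E15 than at E12 and used a further enzyme from P2 on, and dead cells were removed from embryonic samples where P2 and adult samples were sorted again. P2 and adult hearts were digested alike, and red cells were lysed in adult samples alone, so stage and preparation cannot be told apart. Transcripts were counted by molecular barcodes (UMIs) at their 3' ends, so levels were not divided by gene length. The labels name no transgene and no treatment.

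Leukocytes leave the blood in steps. Selectins on the endothelium slow the cell and let it roll, chemokines on the vessel surface switch on its integrins, and Icam and Vcam proteins bind those integrins so that the cell stops and crosses the wall. Icam2 is carried by resting endothelium, Icam1 and Vcam1 are raised by inflammatory signals, Selp protein is stored in granules of endothelial cells and platelets, Sele is made after cytokine stimulation, and Ccl2 draws monocytes. Ly6a is known as the stem cell antigen Sca-1, Ly6c1 as a surface antigen of endothelium and of leukocytes, and Ly6e as an interferon-induced gene. Ly6a, Ly6c1 and Ly6e are neighbours in a gene cluster on chromosome 15.

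The libraries held 5732 (E12), 6062 (E15), 5884 (P2) and 4242 (adult) cells, with a median of 1241, 1013, 4531.5 and 1510 UMIs per cell. At E12 the cells were the barcodes with the most UMIs, down to a fixed cutoff. Levels are given as CPM, the UMIs of a gene per 1000000 UMIs of its group. Intervals in brackets are exact 95% intervals for counting error only, and with 1 library per stage no difference could be tested. A gene counted as changed at a ratio of at least 2-fold, among genes with at least 10 UMIs expected in the smaller group. That expectation pooled both groups, so a gene could pass through the group where it was high. Pairs of libraries shared 25 to 60 cell barcodes, up to 1.02% of a library, where 33.0 to 48.4 would be shared if barcodes were independent.

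The endocardial rule took 1716 (E12), 2115 (E15), 1082 (P2) and 75 (adult) cells, and the coronary rule 113, 1254, 4596 and 4077. Artery cells numbered 332, 69, 711 and 1875, and large artery cells 1096, 588, 1951 and 759. Pan-endothelial markers (Pecam1, Cdh5, Kdr, Tie1 and Egfl7) summed to 3037 CPM or more in each of the 4 groups at P2 and in the adult, and artery markers (Gja4, Gja5, Sox17 and Hey1) to 1225 CPM in artery cells of P2 against 221 CPM in other coronary cells, which met neither artery rule. In large artery cells of P2 they summed to 533 CPM. In the adult they summed to 724 CPM in artery cells, 1045 CPM in large artery cells and 211 CPM in other coronary cells. At E12 the artery rules went against their names. Pan-endothelial markers summed to only 229 CPM in E12 artery cells and 437 CPM in E12 large artery cells, against 1811 CPM in coronary cells, while fibroblast markers stood at 2082 and 1802 CPM, with a UMI of at least 1 of them in 90.4% and 78.3% of the cells (49.3% of all E12 cells). At E15 these shares were 71.0% and 69.7% (31.1% of all E15 cells). None of the 332 artery cells of E12 met the coronary rule. The 113 coronary cells of E12 had few capillary markers (41.2 CPM, with Car4 at 0) and many lymphatic ones (663 CPM), so E12 values of this group rest on a small and mixed set.

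The positions of the genes are given on GRCm38, the assembly of the mm10 reference used for the files. Sele (chr1:164048234-164057677, plus strand) and Selp (chr1:164115264-164150026, plus strand) lie next to each other. Icam1 spans chr9:21015985-21028817 (plus strand), Icam2 chr11:106377656-106388075 (minus strand), Vcam1 chr3:116109949-116129688 (minus strand) and Ccl2 chr11:82035571-82037453 (plus strand). Ly6e spans chr15:74955051-74959905 (plus strand), Ly6a chr15:74994877-74998031 (minus strand) and Ly6c1 chr15:75044018-75048830 (minus strand). Ly6c2, a close relative of Ly6c1, follows at chr15:75108158-75111970 (minus strand).

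RefSeq promoters of build GRCm38.p6 were at hand for 4 of the 9 members. The 150 bases before the start site are printed for Icam1, Sele and Selp, the 3 members that stood over 2-fold higher in P2 coronary cells rich in immediate-early transcripts, and for Ly6c1 beside Ly6c2, neighbours whose counts differed widely. Capitals mark the AP-1 motif (TGANTCA), bound by Fos and Jun proteins, which reads the same on either strand. In the Ly6 pair, capitals mark the longest run of bases that both windows share.
Icam1: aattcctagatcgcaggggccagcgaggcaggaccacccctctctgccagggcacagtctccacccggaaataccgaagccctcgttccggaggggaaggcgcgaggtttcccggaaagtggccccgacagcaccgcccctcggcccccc
Sele: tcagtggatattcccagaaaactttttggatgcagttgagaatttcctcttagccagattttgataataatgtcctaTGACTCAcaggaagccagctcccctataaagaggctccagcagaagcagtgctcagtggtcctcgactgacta
Selp: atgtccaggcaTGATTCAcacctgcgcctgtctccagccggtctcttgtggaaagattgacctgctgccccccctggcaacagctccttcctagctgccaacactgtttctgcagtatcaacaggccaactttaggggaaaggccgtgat
Ly6c1: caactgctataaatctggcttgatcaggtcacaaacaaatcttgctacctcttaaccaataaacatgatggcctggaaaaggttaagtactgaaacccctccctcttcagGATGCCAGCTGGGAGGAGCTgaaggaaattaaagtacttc
Ly6c2: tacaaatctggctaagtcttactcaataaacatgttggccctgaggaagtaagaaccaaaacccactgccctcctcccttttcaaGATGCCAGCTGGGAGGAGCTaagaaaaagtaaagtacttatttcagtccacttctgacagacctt

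The Icam1 window (chr9:21015790-21015939, plus strand) held no AP-1 match, which says no more than that these letters are not in it. The Sele window (chr1:164048084-164048233, plus strand) held an AP-1 match, TGACTCA, at bases -73 to -67 before the start. The Selp window (chr1:164115114-164115263, plus strand) held an AP-1 match, TGATTCA, at -139 to -133. Of 32851 promoter windows of 150 bases, 4.24% held the AP-1 motif and 2.38% the NF-kB motif, read on both strands. The NF-kB motif, a pattern of 10 bases read without mismatch, was found in none of the 4 member windows. Sites that differ from that pattern or lie outside the windows were not searched. The Ly6c1 window (chr15:75048838-75048987, minus strand) and the Ly6c2 window (chr15:75111972-75112121, minus strand) shared a run of 20 bases, at -40 to -21 and at -65 to -46. A match describes letters only, and binding was not measured.

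In coronary cells, Ly6a, Ly6c1 and Ly6e rose at every step that could be counted, and after birth they were the members with the largest gains. Ly6a stood at 8.23 (E12), 22.0 (E15), 412 (P2) and 3054 CPM (adult). Ly6c1 stood at 4.12, 52.4, 592 and 3699 CPM. Ly6e stood at 8.23, 212, 728 and 2747 CPM. The adult level was the highest of the 4 stages for all 3 genes, and the counting intervals of E15, P2 and adult did not overlap for any of them. From E15 to P2, Ly6a rose 18.7-fold (13.6 to 26.6), Ly6c1 11.3-fold (9.17 to 14.1) and Ly6e 3.44-fold (3.09 to 3.83). From P2 to adult, Ly6a rose 7.41-fold (7.23 to 7.59), Ly6c1 6.25-fold (6.12 to 6.38) and Ly6e 3.77-fold (3.70 to 3.85). The order of the 3 genes changed with stage, since Ly6e led at E15 and P2 and Ly6c1 led in the adult. From E12 the gains rest on very few molecules, 1 UMI of Ly6c1 (12.7-fold to E15, 2.23 to 508) and 2 of Ly6e (25.7-fold, 7.07 to 213).

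After birth the share of cells with a UMI rose along with the level. At a fixed depth this share follows the mean level. It cannot tell more cells with the transcript from more transcript in every cell. To remove the difference in depth, cells were thinned to 500 UMIs, and cells with fewer UMIs were left out. A Ly6a UMI was then found in 16.8% of coronary cells at P2 (15.7 to 17.9) and in 71.6% in the adult (70.2 to 73.0). For Ly6c1 the share went from 24.5% to 76.6%, and for Ly6e from 30.1% to 72.0%. The thinned share of Icam2 was 28.1% at P2 and 27.1% in the adult. Without thinning, the shares for Ly6a were 56.4% and 90.9%. In endocardial cells of the same libraries the thinned share of Ly6a was 1.11% at P2 (median 4532 UMIs per cell) and 5.33% in the adult (2609 UMIs). How much of these shares came from free RNA was not tested.

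**Figure D1:**
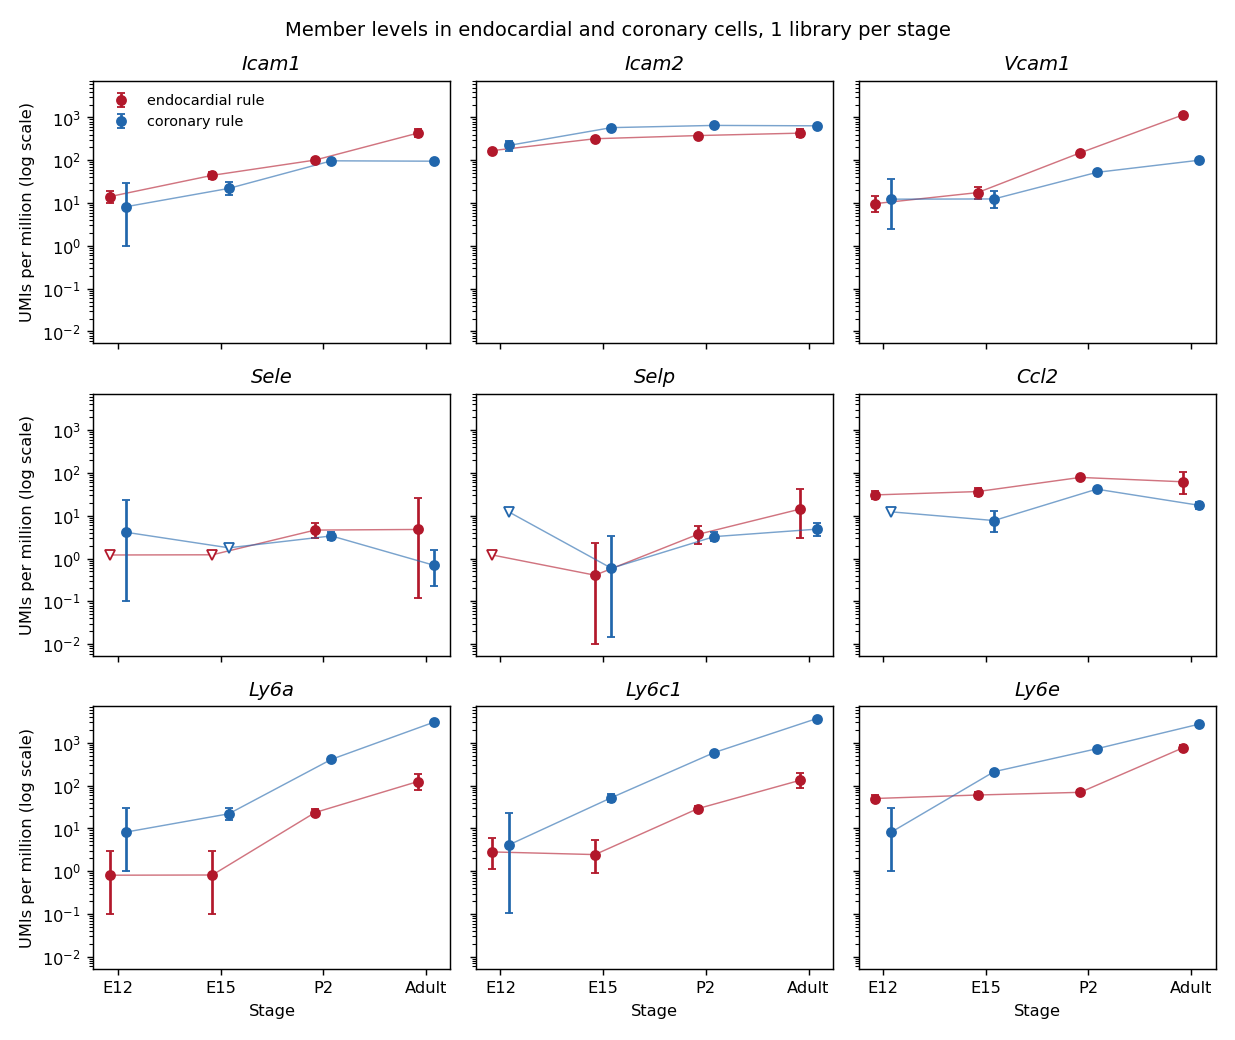
Level of each gene in CPM on a log axis (vertical) at the 4 stages (horizontal) in endocardial (red) and coronary (blue) cells, with bars for exact 95% counting intervals and open triangles for the limit that a count of 0 allows. The 3 Ly6 genes climb to 2747 CPM or more in adult coronary cells, Icam2 is nearly flat after E15, and Vcam1 and Icam1 end higher in endocardial cells.

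Among the immunoglobulin-family genes, Icam2 was the most abundant member in embryonic coronary cells and changed early. Its coronary level was 222 (E12), 579.8 (E15), 653 (P2) and 639 CPM (adult). It rose 2.61-fold from E12 to E15 (1.98 to 3.50), and the later steps were 1.13-fold and 0.978-fold. Icam1, the inducible counterpart, stood at 8.23, 22.0, 97.2 and 95.3 CPM. It rose 4.41-fold from E15 to P2 (3.19 to 6.29) and was level from P2 to adult, at a ratio of 0.980 (0.899 to 1.07). Vcam1 stood at 12.3, 12.5, 52.2 and 100.6 CPM, with a 4.18-fold rise from E15 to P2 (2.72 to 6.77) and a ratio of 1.93 from P2 to adult (1.76 to 2.11). The thinned share of cells with an Icam1 UMI was 4.27% at P2 and 4.12% in the adult, so both Icam genes kept their level while the Ly6 genes multiplied.

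The selectins were rare throughout. Sele stood at 4.12 CPM (1 UMI) at E12, at 0 UMIs at E15, which allows up to 1.79 CPM, and then at 3.38 CPM at P2 and 0.696 CPM in the adult. It fell 4.86-fold from P2 to adult (2.00 to 15.4), on 80 and 5 UMIs. Selp was at 0 UMIs at E12 (up to 12.3 CPM), 0.595 CPM at E15 (1 UMI), 3.26 CPM at P2 and 4.87 CPM in the adult. Of the 77 Selp UMIs at P2, 25 came from a single cell, and without it the level was 2.2 CPM. The Selp ratio of adult to P2, 1.49 (0.973 to 2.26), had the other direction under the study's own limits on cells (-0.32 on the log2 scale). Only 41 of 4596 coronary cells held Selp at P2, and 14 of 4077 did so in the adult.

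Ccl2 was also carried by few cells. Its coronary level was 0 UMIs at E12 (up to 12.3 CPM), 7.74 CPM at E15, 41.9 CPM at P2 and 17.5 CPM in the adult. It rose 5.41-fold from E15 to P2 (3.15 to 10.2) and fell 2.39-fold to the adult (1.98 to 2.90). At P2, 177 of 4596 coronary cells had a Ccl2 UMI, with a mean of 5.59 UMIs in those cells and 115 in the highest. The 1% of cells with the most Ccl2 held 83.5% of its UMIs. For Icam2 the same share was 4.33% and for Ly6c1 7.15%, so Ccl2 was a gene of a few cells with high counts and Icam2 and Ly6c1 were genes of many.

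Counted over the 9 genes, 3 of 3 testable members rose from E12 to E15 in coronary cells (Icam2, Ly6c1 and Ly6e). Over that step 9.1% of 2934 genes changed in either direction and 7.4% rose. Ly6c1 and Ly6e, with 1 and 2 UMIs at E12, were testable only through E15, where they were high. From E15 to P2, 6 of 7 rose, against 19.4% of all genes changed and 16.7% that rose. From P2 to adult, 3 of 9 rose and Sele and Ccl2 fell, against 22.6% changed, with 10.2% higher and 12.5% lower. Sele, with 5 UMIs in the adult, was testable only through P2, where it was high. The median gene itself moved by 0.37 on the log2 scale from E15 to P2, where the members' median was 2.14. Centred on the median gene, Icam1 rose by 1.77 on the log2 scale over that step. Leukocyte markers (Ptprc, C1qa, C1qb, Tyrobp, Fcer1g and Lyz2) summed to 8.23, 15.5, 0.93 and 205 CPM in coronary cells of the 4 stages. Without the cells that had any leukocyte UMI, the P2 to adult change of Ly6a was 2.90 on the log2 scale, against 2.89 with them.

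In endocardial cells, Vcam1 and Icam1 rose after E15 and ended at 1149.6 and 431 CPM, where the same genes stood at 100.6 and 95.3 CPM in adult coronary cells. Vcam1 stood at 9.70 (E12), 17.6 (E15), 149.6 (P2) and 1149.6 CPM (adult). Icam1 stood at 14.1, 44.6, 101 and 431 CPM. Vcam1 rose 8.51-fold from E15 to P2 (6.26 to 11.9) and 7.69-fold from P2 to adult (6.62 to 8.89). Icam1 rose at each step, 3.15-fold to E15 (2.13 to 4.75), 2.27-fold to P2 (1.84 to 2.82) and 4.26-fold to the adult (3.37 to 5.34). The adult group held only 75 cells, with 240 Vcam1 and 90 Icam1 UMIs. A UMI of Vcam1 was found in 53 of these 75 cells and of Icam1 in 35, so the levels were not made by a few cells. In these 75 cells the endocardial markers (Nfatc1, Cytl1 and Plvap) summed to 3798 CPM, and fibroblast markers, with Col1a1 at 0, to 2788 CPM.

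Icam2 stood at 168, 319, 378 and 431 CPM in endocardial cells, a slow climb in which no step reached 2-fold. Ly6a stood at 0.809, 0.818, 23.5 and 125 CPM, with a rise of 28.8-fold from E15 to P2 (7.80 to 240.5) that starts from 2 UMIs. Ly6c1 stood at 2.83, 2.45, 29.0 and 134 CPM and rose 11.8-fold over the same step (5.30 to 32.7). Ly6e had another time course, with 50.1, 60.5 and 69.9 CPM up to P2 and then 766 CPM in the adult, a 10.97-fold rise (9.05 to 13.2). Ccl2 stood at 30.7, 36.8, 78.7 and 62.3 CPM and rose 2.14-fold from E15 to P2 (1.70 to 2.72). A single P2 cell held 121 of the 408 Ccl2 UMIs, and without it the P2 level was 55.5 CPM, short of 2-fold over E15. Sele was at 0 UMIs in both embryonic groups (up to 1.21 and 1.23 CPM), and Selp stood at 3.67 CPM at P2 and 14.4 CPM in the adult (3 UMIs).

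Over the endocardial steps, 1 of 5 testable members rose from E12 to E15 (Icam1), where 8.53% of all genes tested changed and 3.81% rose. From E15 to P2, 5 of 7 rose, against 17.0% changed and 12.3% that rose. Of these, Ly6a and Ly6c1, with 2 and 6 UMIs at E15, were testable only through P2. From P2 to adult, 3 of 5 rose (Icam1, Vcam1 and Ly6e), against 15.9% changed and 4.52% that rose. Members that fell numbered 0 at each of the 3 steps.

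Set side by side, the 3 Ly6 genes were higher in coronary than in endocardial cells at E15, P2 and in the adult, Vcam1 was lower there at P2 and in the adult, and Icam1 at E15 and in the adult. In the adult, Ly6a was 24.5-fold higher in coronary cells (16.7 to 37.6), Ly6c1 27.6-fold (19.1 to 41.5) and Ly6e 3.58-fold (3.07 to 4.21). Vcam1 was 11.4-fold lower in coronary cells (9.84 to 13.2) and Icam1 4.52-fold lower (3.59 to 5.64). At P2, Ly6a was 17.5-fold (14.6 to 21.1), Ly6c1 20.5-fold (17.4 to 24.2) and Ly6e 10.4-fold (9.39 to 11.6) higher, and Vcam1 2.87-fold lower (2.62 to 3.14). At P2 the ratio of Icam1 was 0.961 (0.874 to 1.06), so its gap was seen in the adult and, at 2.02-fold (1.38 to 3.02), at E15. Icam2 was 1.32-fold to 1.82-fold of the endocardial level at the 4 stages, short of 2-fold at each.

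The gap in Ly6a and Ly6c1 was already there at E15, although the levels were low. Ly6a was 26.9-fold higher in coronary cells (6.95 to 231) on 37 against 2 UMIs, and Ly6c1 21.4-fold (9.43 to 59.8) on 88 against 6. Ly6e was 3.50-fold higher (2.88 to 4.27), and Ccl2 4.76-fold lower (2.65 to 9.27). At E12 Ly6e was 6.09-fold lower in coronary cells (1.65 to 50.8), with 2 UMIs in the 113 coronary cells and 124 in the 1716 endocardial cells. Changed members numbered 1 of 2 at E12 (13.3% of all genes tested), 5 of 7 at E15 (16.8%), 4 of 9 at P2 (18.3%) and 5 of 6 in the adult (22.0%). Ly6e at E12 and Ly6a and Ly6c1 at E15 were testable only through the group where they were high.

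**Figure D2:**
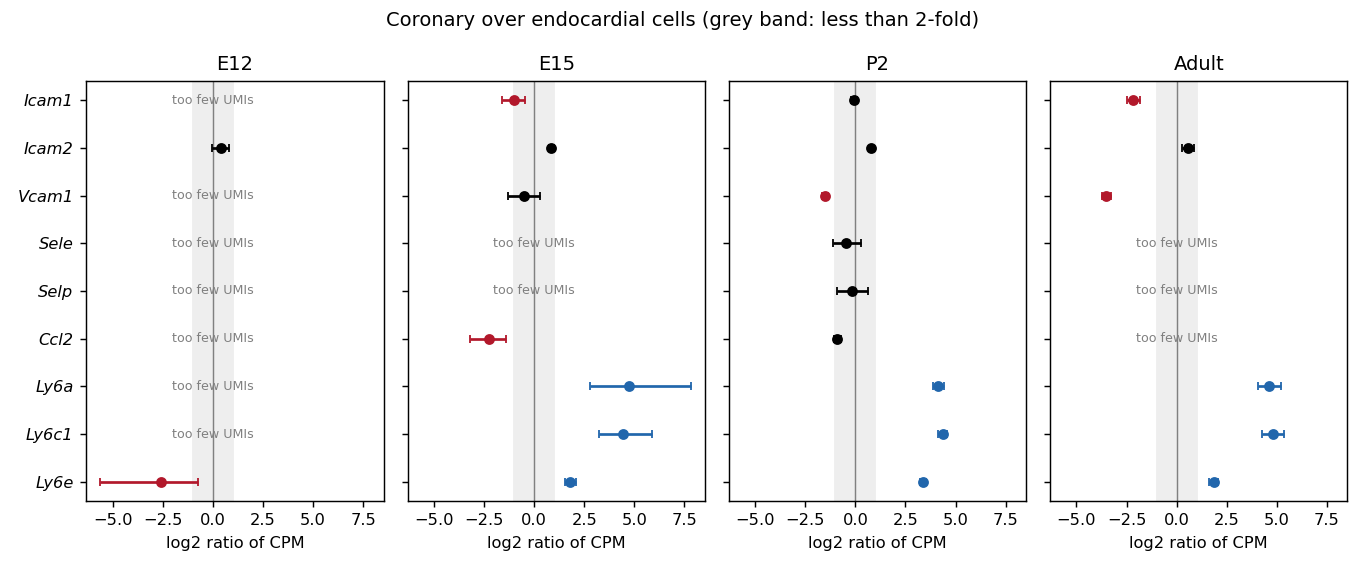
Log2 ratio of coronary to endocardial level (horizontal) for each gene (vertical) at the 4 stages, with bars for exact 95% counting intervals and a grey band for less than 2-fold. Ly6a, Ly6c1 and Ly6e lie to the right at E15, P2 and adult, while Vcam1 lies to the left at P2 and adult and Icam1 at E15 and adult.

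The 3 Ly6 genes also differed in their proportions. Endocardial cells of the adult had 6.15 Ly6e UMIs per Ly6a UMI (4.05 to 9.71), and coronary cells had 0.899 (0.882 to 0.917). At P2 the ratios were 2.97 (2.41 to 3.67) and 1.77 (1.72 to 1.81). Ly6c1 and Ly6a kept a closer proportion, with 1.08 Ly6c1 UMIs per Ly6a UMI in adult endocardial cells (0.609 to 1.91) and 1.21 in adult coronary cells (1.19 to 1.23). So the shortfall of endocardial cells was larger for Ly6a and Ly6c1 than for Ly6e.

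Ly6c2, Ly6d, Ly6f, Ly6g and Ly6i had far fewer UMIs in adult coronary cells than the 3 members, but Gpihbp1 of the same family did not. Ly6c2 stood at 0 UMIs at E12, 2.98 CPM at E15, 3.09 CPM at P2 and 35.9 CPM in the adult, where Ly6c1 stood at 3699 CPM. The promoters of the pair, printed above, shared at most 20 bases in a row. Ly6d and Ly6i reached at most 1.53 and 1.39 CPM, Ly6g 0.139 CPM, and Ly6f was at 0 UMIs in coronary cells of all 4 stages. Reads that match more than 1 of these related genes could have been left out or split, so each value is uncertain to that extent. Gpihbp1, the family member that holds lipoprotein lipase on capillaries, stood at 16.5, 482, 1277 and 2240 CPM in coronary cells and at 2.83, 24.9, 54.4 and 62.3 CPM in endocardial cells. Of 20 other family genes only 4 could be tested in coronary cells from E15 to P2, and Gpihbp1 rose while Ly6h fell, where 16.7% of all genes rose and 2.71% fell. From P2 to adult 2 of 8 rose (Ly6c2 and Lynx1) and 4 fell (Ly6h, Lypd1, Lypd6 and Plaur), where 10.2% of all genes rose and 12.5% fell. Cd59a, which protects cells from complement, was lower in coronary cells, at 110.2 CPM against 383 CPM in adult endocardial cells.

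Within single cells the Ly6 genes were closer to each other than to Pecam1 or Icam2, at modest values. Over the 3023 other coronary cells of P2, the Pearson correlation of the per-cell levels was 0.442 for Ly6a with Ly6c1, 0.382 for Ly6a with Ly6e and 0.414 for Ly6c1 with Ly6e. With Pecam1 as a comparison gene, Ly6a gave 0.061. In 2008 adult cells the same pairs gave 0.37, 0.25 and 0.186, and Ly6a with Pecam1 gave -0.005. These values are descriptive, since cells of 1 library share its depth and preparation and counts per cell were small. The median adult cell held 2140 CPM of Ly6a, 2766 CPM of Ly6c1 and 2359.5 CPM of Ly6e, and 267, 200 and 179 of the 2008 cells had no UMI of the gene.

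Between vessel types of P2, artery cells had more Ly6a and Vcam1 than other coronary cells and less Sele. Ly6a stood at 934 CPM in artery cells against 371 CPM, 2.52-fold higher (2.41 to 2.62). Vcam1 stood at 59.8 against 28.2 CPM, 2.12-fold higher (1.80 to 2.50). Sele stood at 1.52 against 3.67 CPM, 2.41-fold lower (1.04 to 6.86), on 6 and 54 UMIs. The Vcam1 call was not stable, at 0.80 on the log2 scale in artery cells that also met the coronary rule, and in the other direction when the groups were drawn from cells thinned to 1000 UMIs (-1.23). Ly6c1 had a ratio of 1.95 (1.89 to 2.03) and Ly6e of 1.38 (1.33 to 1.43). In all, 3 of 8 members differed, against 6.35% of all genes tested. Sele was testable only through the other coronary cells, where it was high.

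In the adult the same comparison showed 1 of 8 members past 2-fold, against 5.77% of all genes. This was Ccl2, at 10.8 CPM in artery cells and 5.34 CPM in the others, a ratio of 2.02 (1.11 to 3.85) on 41 and 16 UMIs. Leukocyte markers summed to 445 CPM in artery cells and 127 CPM in the others, and without cells with a leukocyte UMI the Ccl2 difference was -0.14 on the log2 scale. The Ly6a ratio was 1.43 (1.39 to 1.47), that of Ly6c1 1.50 (1.46 to 1.54) and that of Ly6e 1.17 (1.13 to 1.20). The counting intervals of the Ly6a ratio lay above 1 at both stages, and the ratio passed 2-fold at P2 alone. The artery rule took 12.1% of all cells at P2 and 44.2% in the adult, where artery markers stood less far above other coronary cells. The artery groups of the stages are therefore not alike, and a stage difference in arteries cannot be read from these ratios.

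Vcam1 and Selp were higher in large artery cells than in other coronary cells at both postnatal stages. At P2, Vcam1 stood at 134 CPM against 28.2 CPM in other coronary cells, 4.74-fold higher (4.24 to 5.29). Selp stood at 7.46 against 1.09 CPM, 6.86-fold higher (3.98 to 12.6), on 80 and 16 UMIs. The 80 include the single cell of 25 Selp UMIs, which was not left out here. In the adult, Vcam1 stood at 369 against 79.8 CPM, 4.62-fold higher (3.98 to 5.38), and Selp at 18.7 against 3.67 CPM, 5.09-fold higher (2.53 to 11.1). This Selp difference, 2.35 on the log2 scale, was 1.25 under the study's limits on cells and 3.62 without cells rich in immediate-early transcripts. Ccl2 was 10.3-fold higher in the adult (6.05 to 18.7), at 55.1 against 5.34 CPM. Ly6c1 and Ly6e were lower in large artery cells at P2, by 2.39-fold (2.29 to 2.50) and 2.38-fold (2.29 to 2.47). Changed members numbered 4 of 9 at P2, against 18.4% of all genes tested, and 3 of 8 in the adult, against 13.5%. Adult Selp and Ccl2, with 11 and 16 UMIs in other coronary cells, were testable only through the large artery cells, where they were high.

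Large artery cells overlapped with other groups, which bears on these values. Of the 1951 large artery cells of P2, 33.0% met the endocardial rule and 60.2% the coronary rule, and their lymphatic markers summed to 1983 CPM. Restricted to those that met the coronary rule, the P2 difference of Vcam1 was 2.02 on the log2 scale, against 2.24 before. The same restriction took Ly6c1 from -1.26 to -0.70 and Ly6e from -1.25 to -0.72, so these 2 calls were lost. In the adult 87.6% of large artery cells met the coronary rule. Drawn by a stricter rule, the adult Ccl2 difference was 0.81 on the log2 scale, against 3.37.

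In embryos the artery groups had fewer pan-endothelial and more fibroblast transcripts than other coronary cells, and of their members past 2-fold all but Vcam1 at E15 were lower there. At E12, Icam2 was the 1 testable member in both comparisons and was 10.53-fold lower in artery cells (24.6% of all genes changed) and 5.47-fold lower in large artery cells (21.6%). In both, Icam2 was testable only through the other coronary cells, where it was high. At E15, Ly6e was 2.11-fold lower in artery cells, 1 of 2 testable members (17.5%). In large artery cells of E15, Icam2, Ly6a, Ly6c1 and Ly6e were lower and Vcam1 was 2.91-fold higher (1.50 to 5.80), 5 of 6 members (19.3%). The Ly6a value was 20.1-fold lower (3.39 to 817) on 1 against 36 UMIs. Ly6a and Ly6c1 were testable there only through the other coronary cells, and Vcam1 only through the large artery cells. In the 67 large artery cells of E15 that met the coronary rule, only Icam2 and Ly6e had enough UMIs. They differed by -0.34 and -0.04 on the log2 scale. Ly6a and Ly6c1, with too few UMIs there, stayed lower, at -1.5 and -2.74.

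**Figure D3:**
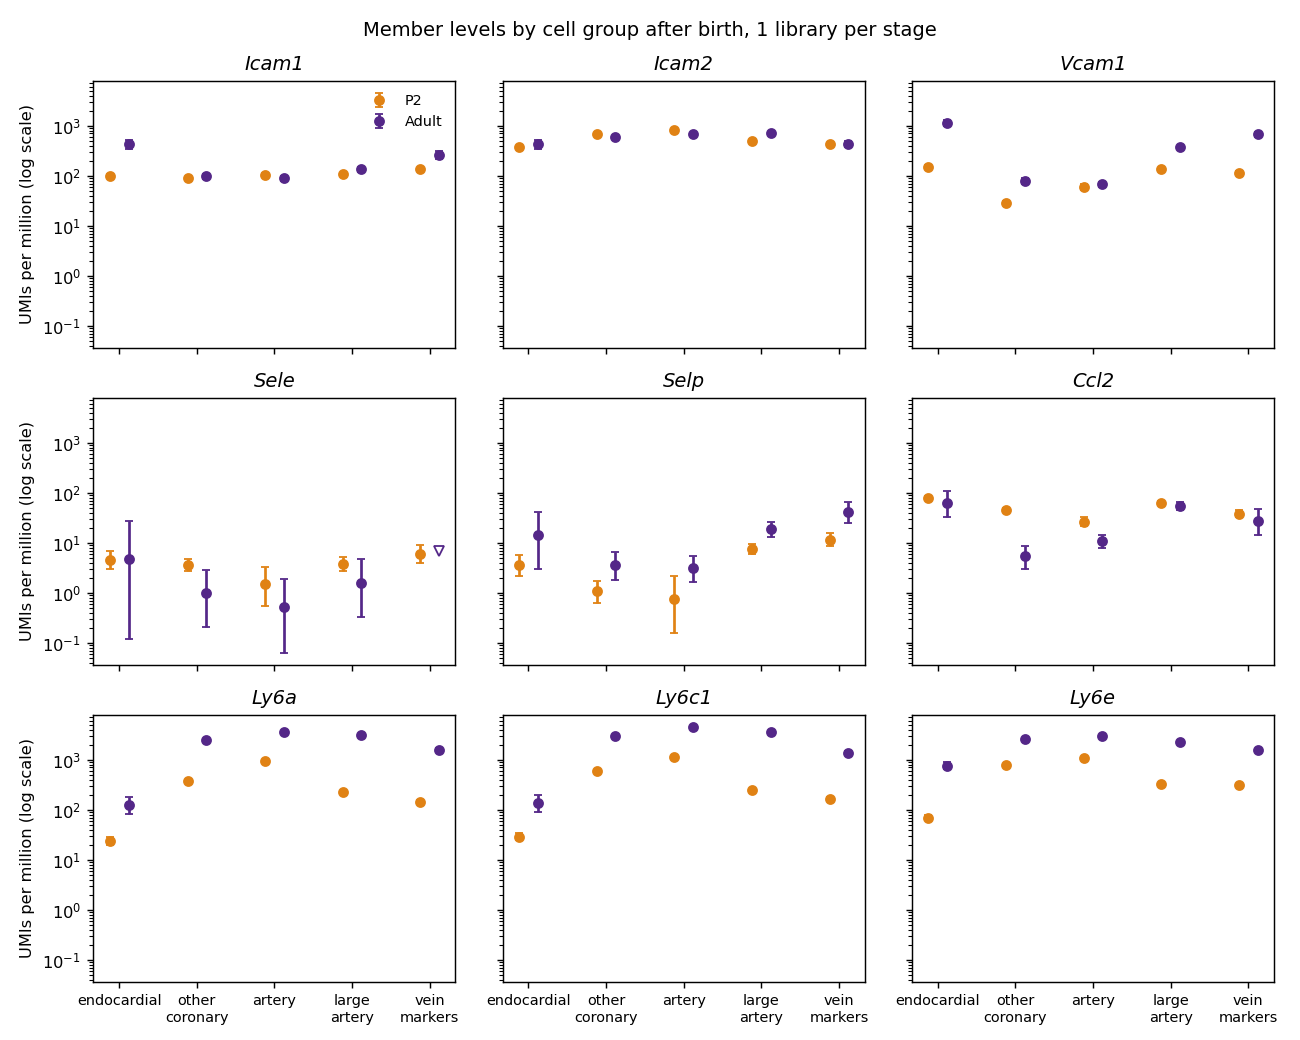
Level of each gene in CPM on a log axis (vertical) in 5 groups of cells (horizontal) at P2 (orange) and in the adult (purple), with bars for exact 95% counting intervals and an open triangle for the limit that a count of 0 allows. Vcam1 and Selp are lowest in other coronary and artery cells, and the adult points of the Ly6 genes lie above the P2 points in every group.

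Cells with vein markers (at least 3 UMIs of Vwf, Prss23 and Nr2f2) were described in the same way, with no rule that set them apart from the other groups. The 174 adult cells had 41.4 CPM of Selp (24.6 to 65.5), 674 CPM of Vcam1 and 260.1 CPM of Icam1, with Sele at 0 UMIs. Their Ly6a level was 1572 CPM, where other coronary cells had 2482 CPM. The 699 cells of P2 had 11.6 CPM of Selp (8.49 to 15.5), 112 CPM of Vcam1 and 134 CPM of Icam1. Lymphatic markers summed to 5261 CPM in the P2 group and mural markers to 3052 CPM in the adult group, so neither was a pure set of vein cells, and their part in these levels was not tested.

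Cells with markers of other cell types, which the sort could still hold, carried some of the members. The 32 leukocyte-marker cells of E12 had 460.2 CPM of Ccl2 (36 UMIs), the largest Ccl2 level of any group at that stage, and 460.2 CPM of Ly6e, with Ly6a at 0 UMIs. The 39 such cells of E15 had 794 CPM of Ly6e, and 59.6 CPM of Ccl2 on 3 UMIs. Fibroblast-marker cells (at least 10 UMIs of Col1a1, Col1a2, Dcn, Pdgfra and Postn) had 207 CPM of Vcam1 and 131 CPM of Ccl2 at P2 (406 cells). The 116 such cells of the adult had 910.0 CPM of Vcam1, 226 CPM of Ccl2 and 46.6 CPM of Selp. Vcam1 and Ccl2 were therefore read in cells with fibroblast transcripts as well as in endocardial and large artery cells, and how far those groups share cells bears on each level.

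In single coronary cells, those with a Vcam1 UMI had more Ccl2, Selp and Icam1. They had less Ly6c1 at P2 and in the adult, past 2-fold at P2 alone. The 510 coronary cells of P2 with a Vcam1 UMI had 17.2 times the Ccl2 level of the other cells (14.9 to 19.9), 7.74 times the Selp (4.82 to 12.5) and 2.67 times the Icam1 (2.44 to 2.92). Without the single cell of 25 Selp UMIs, which had a Vcam1 UMI, the Selp ratio was 3.35 (1.80 to 6.06). Their Ly6c1 level was 0.378 of that of the others (0.353 to 0.405). In the adult, 315 such cells had 3.01 times the Icam1 (2.53 to 3.56) and 0.634 of the Ly6c1 (0.605 to 0.663), and they held 32 of the 35 Selp UMIs and all 5 Sele UMIs. Cells with a Vcam1 UMI were deeper, with a median of 6209 UMIs at P2, where cells without one had 4388.5, and of 2110 against 1454.5 for adult hearts. Col1a1 and Npr3, chosen after their values were seen, also differed. The fibroblast gene Col1a1 was 33.7-fold higher in Vcam1 cells of P2 and 10.6-fold higher in those of the adult, and the endocardial gene Npr3 16.6-fold higher in the adult, and whether doublets contribute was not tested.

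Cells with a selectin UMI were few, and Cxcl1, Nr2f2, Ackr1, Pecam1 and Pf4 were read in them after their values were seen. The 62 coronary cells of P2 with a Sele UMI had 2.73 times the Icam1 level of the others (2.23 to 3.30), 5.58 times the Cxcl1 (4.62 to 6.68, or 3.38 times without 1 cell of 53 UMIs) and 0.485 of the Ly6c1 (0.403 to 0.579). Their Selp ratio, 29.3, rests on 27 UMIs in 3 cells, and was 2.2 (0.259 to 8.37) without 1 cell of 25 UMIs. The 41 cells with a Selp UMI had 3.95 times the Icam1 (3.19 to 4.85) and 2.66 times the Nr2f2 (1.97 to 3.52), a vein gene. Ackr1, a chemokine-binding receptor of venules, had 7 UMIs in them, all in 1 cell. The 31 adult coronary cells with a Ccl2 UMI had 0.242 of the Ly6c1 level of the others (0.200 to 0.291), 0.465 of the Pecam1 (0.342 to 0.617) and 133 of 270 Pf4 UMIs, a transcript of platelets and some macrophages, in 6 of the cells, 59 of them in 1 cell.

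Immediate-early genes are switched on within minutes by many stimuli, cell dissociation among them, and the study left cells rich in them out of its own analysis. Cells in which Fos, Fosb, Jun, Junb, Egr1, Atf3, Ier2, Ier3, Dusp1 and Zfp36 made up at least 1% of UMIs numbered 944 of 4596 coronary cells at P2 (20.5%) and 840 of 4077 in the adult (20.6%), and 20 and 61 of all cells at E12 and E15. At P2 these cells had 209 CPM of Icam1 against 71.1 CPM in the others, 2.94-fold higher (2.70 to 3.20). Sele was 3.15-fold higher (1.96 to 5.02), at 7.57 against 2.40 CPM. Selp was 5.69-fold higher (3.54 to 9.22), at 9.80 against 1.72 CPM, and 4.23 CPM without the single cell of 25 UMIs. Ly6c1 had a ratio of 1.75, Ly6a 1.52, Ly6e 1.19, Icam2 1.04 and Ccl2 0.768.

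In the adult, Icam1 was again higher in these cells, 2.08-fold (1.78 to 2.43), at 155 against 74.6 CPM. The Ly6 genes had ratios under 1 there, with Ly6a at 0.727 (0.703 to 0.752), Ly6c1 at 0.754 and Ly6e at 0.783, and all 5 Sele UMIs lay in the other cells. Without the cells rich in immediate-early transcripts, the E15 to P2 rise of Icam1 in coronary cells was 1.69 on the log2 scale, against 2.14 with them, and the P2 to adult rise of Ly6a was 3.13, against 2.89. The 36 endocardial cells of P2 in this class held 7 of 19 Selp UMIs and had 2.55 times the Icam1 of the others (1.78 to 3.55). The AP-1 matches printed above for Sele and Selp, and the absence of one before Icam1, describe the windows and no more.

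**Figure D4:**
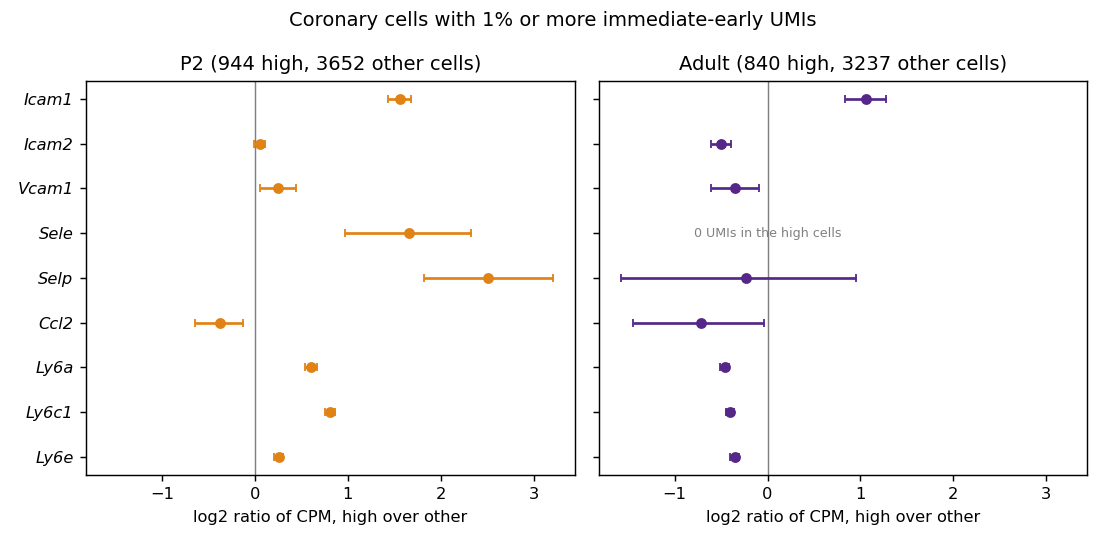
Log2 ratio (horizontal) of the level of each gene (vertical) in coronary cells with at least 1% immediate-early UMIs to that in the other coronary cells, at P2 (944 and 3652 cells) and in the adult (840 and 3237 cells), with bars for exact 95% counting intervals. Icam1 lies above 1 at both stages, Sele and Selp do so at P2 alone, and the Ly6 genes change sides between the stages.

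Other genes of the same pathways were read from lists. Of 16 interferon-response genes, 13 of 15 testable ones rose in coronary cells from E15 to P2 and 15 of 16 from P2 to adult, with 0 falling at either step, where 16.7% and 10.2% of all genes rose. Ifitm3, which blocks entry of viruses, went from 407 (E15) to 1650.3 (P2) and 3498 CPM (adult), and Bst2, which tethers viruses, from 216 to 382 and 816 CPM. In endocardial cells Ifitm3 stood at 389, 998 and 2697 CPM. All 10 immediate-early genes rose in coronary cells from E15 to P2, Fos from 218 to 1599.7 CPM, and 3 of 10 rose from P2 to adult. In coronary cells the Ly6 genes and most of these interferon-response genes rose over the same steps, and a link between them was not tested.

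Of 12 chemokine and cytokine genes, 6 of 8 testable ones rose in coronary cells from E15 to P2 and 0 fell, beside 16.7% of all genes that rose over that step and 10.2% over the next. Cxcl1, which draws neutrophils, stood at 4.12, 8.93, 59.5 and 79.2 CPM over the 4 stages, and Cxcl2 at 16.2 CPM at P2 and 61.2 CPM in the adult. Cxcl16, a membrane-bound chemokine, was lower in coronary cells, at 54.9 against 196 CPM in adult endocardial cells. Of 13 NF-kB genes, 5 of 12 rose from E15 to P2 and 3 of 13 from P2 to adult, beside the same shares of all genes. Nfkbia, the inhibitor induced by NF-kB itself, stood at 49.4, 134.5, 409 and 721 CPM in coronary cells. Of 26 further genes of leukocyte adhesion and crossing, 6 of 17 rose from E15 to P2, and 4 rose and 3 fell of 19 from P2 to adult, where 12.5% of all genes fell. Cdh5, the cadherin of endothelial junctions, stood at 346, 561, 937 and 1239 CPM, Cd34 at 309, 454, 1013 and 736 CPM and Esam at 173, 403, 788 and 1179 CPM.

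The genes with the most similar pattern over the 16 groups of 4 classes and 4 stages were listed for each member by the Pearson correlation of log2 levels. For Ly6a they were Tmem255b (0.993), Ly6c1 (0.992) and Lgals3bp (0.990), and for Ly6c1 Ly6a (0.992), Tmem255b (0.990) and Mgll (0.987). For Ly6e they were 4930523C07Rik (0.981), Prr13 (0.977) and Irgm1 (0.968). Icam2 was most like Efna1 (0.989), Cdh5 (0.966) and Esam (0.965). Icam1 was most like Abhd16a (0.987), Dnajc3 (0.980) and Ddx10 (0.977), and Vcam1 most like Cp (0.980), Pqlc3 (0.970) and Tmem43 (0.965). Selp was most like Lrg1 (0.944), Cp (0.941) and Cygb (0.924), and Ccl2 most like Kdelc2 (0.925), H13 (0.915) and Ugp2 (0.911). Sele had too few UMIs. The 16 groups share 4 libraries and some cells, and 10940 genes were compared, so high values are a description of likeness and no more.

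The E12 library held many barcodes below the cutoff for cells, and in the smallest of them the Ly6 genes stood higher than in the cells. In barcodes of 1 to 7 UMIs, Ly6a stood at 132 CPM, Ly6c1 at 173 CPM and Ly6e at 203 CPM. In the 5732 cells they stood at 0.740, 2.59 and 42.0 CPM. Icam2 stood at 182 CPM in the former and 112 CPM in the latter. Sftpc, a surfactant gene of lung epithelium that was chosen after its value was seen, stood at 1267 CPM in barcodes of 1 to 7 UMIs, at 1867 CPM in those of 8 to 30 UMIs and at 5.29 CPM in the cells. Of the Ly6a UMIs below the cutoff, 98.4% lay in barcodes that were cells of no other library, as did 88.7% of all UMIs below the cutoff. Barcodes that were cells of the E15 library alone held 9.87% of all UMIs below the cutoff. They held 0 of the Ly6a UMIs and 36.65% of those of Fabp4, a gene of the coronary rule. Their median was 15 UMIs, where barcodes of no other library had 2. The source of the transcripts below the cutoff was not tested, and the Ly6a and Ly6c1 levels of E12 cells lie far below those of the small barcodes.

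**Figure D5:**
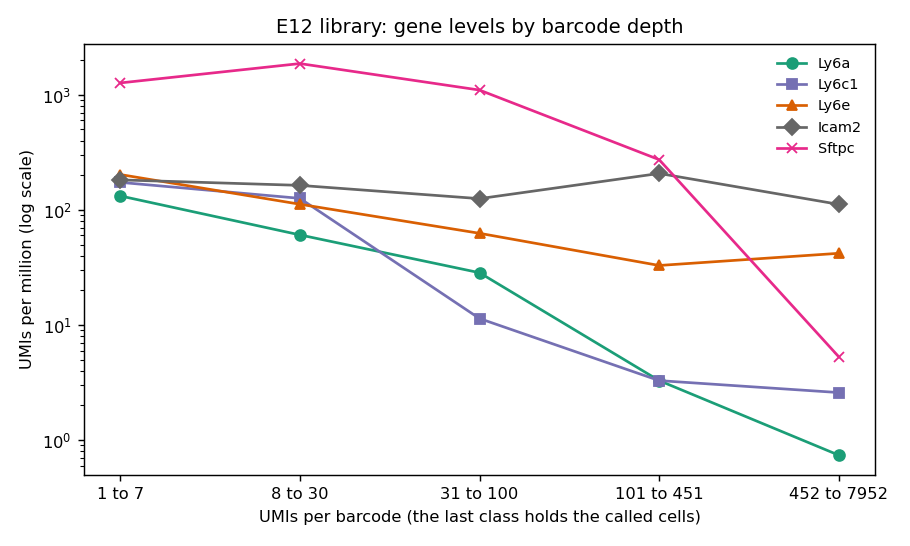
Level in CPM on a log axis (vertical) of Ly6a, Ly6c1, Ly6e, Icam2 and the lung gene Sftpc in E12 barcodes grouped by their number of UMIs (horizontal), the last group being the 5732 cells. Ly6a, Ly6c1 and Sftpc drop from the smallest barcodes to the cells, while Icam2 stays between 112 and 207 CPM.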

How the data were processed

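Single-cell libraries were made with the 10x 3' v2 chemistry from CD31+/CD45- cells of pooled C57Bl6J hearts, 1 library per stage. Reads were processed by the authors with Cell Ranger 2.2 against mm10, and the deposited values are UMI counts per gene and barcode, not normalised. The E12 matrix was deposited with all its barcodes, and those with at least 452 UMIs were taken as cells. How reads that match several Ly6 genes were assigned is not given in the sources used here.

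UMIs were summed per group and stage and divided by all UMIs of the group to give CPM. Ratios carry exact conditional binomial 95% intervals, levels exact Poisson intervals and shares exact Clopper-Pearson intervals, all for counting error only. A count of 0 was given the limit of 3 counts. Genes were compared with at least 10 UMIs expected in the smaller group and at least 20 cells in each group, and a ratio of 2-fold or more counted as changed. This script was tested on simulated counts. With 1 library per stage and several animals in each pool, no test between stages was possible. Shares were compared in cells thinned to 500 UMIs, with shallower cells left out. No doublets were removed in the reported values, and the authors' limits with a Scrublet score of at most 0.15 were an alternative. Likeness was the Pearson correlation of log2(CPM + 10) over groups of at least 50 cells, for genes with at least 200 UMIs.

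The genes named are the 9 members, 3 of each list by UMIs, and 3 per member by likeness, beside those said to be chosen after their values were seen. The members, lists and groups were chosen with earlier results of these data known. Alternatives varied the cell limits, doublets, immune and immediate-early cells, endothelial markers, group rules, total, scaling, weighting, filters and the E12 cutoff (600 UMIs). Python 3.11.15, numpy 2.4.6, scipy 1.17.1, pandas 2.3.3 and matplotlib 3.10.9 were used. Gene positions are from GENCODE M21 and promoters from RefSeq (GRCm38.p6).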

Additional observations from a re-analysis of the deposited data

Results flagged for a closer look

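Several members differed from the comparison group in opposite directions at different stages. The differences between stages were not tested, since each stage is 1 library, and all values here are log2 ratios unless a unit is given. Icam2 in artery cells against other coronary cells was at -3.397 (E12), -0.952 (E15), 0.255 (P2) and 0.203 (adult). In large artery cells it was at -2.452, -1.923, -0.454 and 0.278. At E12 fibroblast markers summed to 2082 and 1802 CPM in these groups and to 133 CPM in other coronary cells, and their part in the Icam2 values was not tested.

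Ly6a in large artery cells was at -4.331 (E15), -0.719 (P2) and 0.308 (adult). Ly6c1 there was at -3.985, -1.26 and 0.294. Ly6e in artery cells was at -1.078 (E15), 0.461 (P2) and 0.224 (adult). Ly6e in coronary against endocardial cells was at -2.606 (E12), 1.808 (E15), 3.381 (P2) and 1.842 (adult), and the E12 value rests on 2 UMIs. Ccl2 in artery against other coronary cells was at -0.768 at P2 and 1.011 in the adult.

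In E12 barcodes of 1 to 100 UMIs, which are below the cutoff and enter no comparison, Ly6a stood at 86.302 CPM, Ly6c1 at 120.549 CPM and Ly6e at 142.467 CPM. The lung gene Sftpc stood at 1866.92 CPM in E12 barcodes of 8 to 30 UMIs, and at 7.91, 0.17 and 0.52 CPM in the cells of E15, P2 and adult. The source was not tested.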

How the results depend on the processing

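Of 103 log2 ratios of the members, 57 passed 2-fold, where 5.77% to 24.6% of all genes tested did so in the single comparisons. Of the 57, 42 passed 2-fold in the same direction under every alternative run. The alternatives that changed only the filter on low counts leave a ratio as it is, so they could not disagree. Another 13 kept their direction with some values under 2-fold, and 2 took another direction. These were Vcam1 in P2 artery cells, at -1.23 with groups drawn in thinned cells, and Ccl2 in adult artery cells. Ccl2 was at -0.172 under the study's cell limits, -0.143 with the Scrublet limit added, -0.139 without cells with a leukocyte UMI, -0.772 with groups drawn in thinned cells and -1.576 under stricter group rules. The causes were not tested.

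The number of testable members and the share of all genes changed are not given for the settings below. Counts of members past 2-fold moved as follows, and a move alone is no result about the members. Whether a member had enough UMIs was judged anew in each setting. A count can therefore fall, also to 0, because fewer members were testable. Without a filter on low counts they became 7 (coronary E12 to E15), 2 (endocardial E12 to E15), 6 (endocardial P2 to adult), 4 and 8 (coronary against endocardial at E12 and adult), 3 and 3 (artery at E12 and E15) and 6 (large artery at E12). Some of these unfiltered counts include ratios with a count of 0 set to 3 counts, which can turn a difference around. Selp in coronary cells, with 0 UMIs at E12 and 1 at E15, was so counted as lower at E15 (-4.375). With 30 UMIs expected, which leaves fewer genes, the counts became 1 (endocardial P2 to adult), 0 and 3 (coronary against endocardial at E12 and adult), 0, 0 and 0 (artery at E12, E15 and adult), and 0 and 3 (large artery at E12 and E15). Cells with a Pecam1 or Cdh5 UMI gave 3 (endocardial E12 to E15), 0 (coronary against endocardial at E12), 0 (artery at E15), 0 and 3 (large artery at E12 and E15). Groups drawn in thinned cells gave 0 (coronary against endocardial at E12), 0 and 0 (artery at E12 and adult), and 0 and 3 (large artery at E12 and E15). The study's limits gave 0 (coronary against endocardial at E12) and 0 (artery, adult). With the Scrublet limit the counts were 0, 2, 0 and 3 (coronary against endocardial at E12, artery at E15 and adult, large artery at E15). Stricter group rules gave 2 (endocardial E12 to E15), 3 (large artery at E15) and 1 (large artery, adult). The mean over cells gave 2 (endocardial E12 to E15). Leaving mitochondrial, ribosomal and haemoglobin genes out of the total gave 3 (endocardial E15 to P2) and 0 (artery, adult), and centring on the median gene gave 3 and 0 there and 0 for artery cells at E15. For adult artery cells the count was also 0 without leukocyte-UMI cells, without cells rich in immediate-early transcripts, and in artery cells that met the coronary rule. That last restriction, chosen after seeing the data, gave 0 and 2 for large artery cells at E15 and P2.

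Leaving out cells whose barcode occurs in another library, also chosen after seeing the data, changed levels of at least 20 UMIs by a factor of 0.705 to 1.03. Leaving out the highest cell in the comparisons of single cells was likewise added later. The single library of each stage, the 113 coronary cells of E12 and the 75 endocardial cells of the adult set the limits. Selectins were read from at most 80 UMIs in any of the groups described. No paired analysis was possible because each stage has 1 library, so the stages share a single replicate number.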
